A study of Coturnix japonica with 20 samples.

Results

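The genes described here were chosen by a threshold on their own levels: in the liver of Japanese quail (Coturnix japonica) embryos, the ratio of the mean level after ethinylestradiol to the mean level after solvent was at most 0.6 in males and at most 0.6 in females, and the mean over the solvent libraries was at least 3 CPM (the estimated count of a gene scaled to a common library total). Of 16066 genes measured, 10493 reached that minimum and 85 met both ratios. Left out by name were 7 of these 85 (FGA, FGB, FGG, APOA1, ACSL1, FABP2 and SLC30A10), which gives 78 genes, 47 with a gene name and 31 with only a locus symbol. A ratio at or under 0.5 was reached by 48 of the 78 genes in males and by 57 in females.

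The left liver lobe was collected on embryonic day 9 of incubation at 37 °C and 60% humidity. Eggs had been injected once into the air cell, ahead of incubation, with a volume of 10 µl. EE2 embryos got the synthetic estrogen ethinylestradiol at 3.33 µg/g egg, and solvent embryos got its carrier dimethyl sulfoxide (DMSO) alone. RNA sequencing gave 1 library for each of 4 EE2 males, 5 solvent males, 6 EE2 females and 5 solvent females. Whole tissue was sequenced, so fewer cells of a type and less RNA per cell cannot be told apart in any value below.

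The embryonic liver builds plasma proteins, handles lipids and amino acids, and in egg-laying animals is the organ in which estrogen receptor signalling turns on the synthesis of yolk and egg-coat proteins. The 78 genes were on the lower side after ethinylestradiol: enzymes of ketone, one-carbon and retinoid metabolism, secreted blood proteins, and signalling molecules. By role, 7 are enzymes of lipid and ketone metabolism, 9 are other enzymes, 7 are secreted proteins, 13 are signalling or membrane proteins, 11 are other named genes and 31 have only a locus symbol.

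Library totals were 26776988 to 32119466 estimated counts, except 15298506 in solvent female 9. Markers of hepatocytes were high in every library, with a summed level over 9 tested markers of 157043 to 215762 CPM in EE2 males, 142912 to 190857 CPM in solvent males, 96926 to 160168 CPM in EE2 females and 184609 to 230975 CPM in solvent females. In EE2 males the sum joins markers that moved in different directions: edgeR called APOA1 and FGB lower and APOB higher. APOB lay at 34008 to 40127 CPM in EE2 males against 6724 to 12269 CPM in solvent males. In females the hepatocyte markers were themselves lower after ethinylestradiol, 7 of 9 being called lower and 1 higher by edgeR, and their part in the values of the 78 genes was not tested. ALB, the main plasma protein, lay at 35195 to 79850.2 CPM in EE2 females against 116439 to 143301 CPM in solvent females. Its log2 change in females was -1.61 (SE 0.212, edgeR adjusted p = 2.86e-05). In males ALB lay at 88619 to 133211 CPM after EE2 and 80379 to 120773 CPM after solvent. The list of striated muscle and heart markers also holds MYH11, a smooth muscle myosin. MYH11 was at 21.7 to 53.4 CPM in EE2 males, 13.9 to 43.9 CPM in solvent males, 24.6 to 60.8 CPM in EE2 females and 17.3 to 31.7 CPM in solvent females. The 9 tested markers of the list summed to 411 CPM in EE2 male 5 and 126 CPM in EE2 male 4. The sums were 53.5 to 80.2 CPM in the 5 solvent males, 38.4 to 84.4 CPM in EE2 females and 53.9 to 111 CPM in solvent females. Of these 9 markers edgeR called 3 higher in EE2 males, where limma voom called 0, and 2 lower in EE2 females, and their part in the values of the 78 genes was not tested. Markers of cholangiocytes summed to 198 to 353 CPM in EE2 females against 168 to 204 CPM in solvent females, with SPP1 and SOX9 called higher and EPCAM lower of the 6 tested. In EE2 males edgeR, limma voom and DESeq2 called 0 of these 6, and 0 were under an unadjusted p of 0.05. Among 13 markers of stellate cells and other mesenchyme, ACTA2 and DCN were called higher and RELN lower in EE2 females. With libraries scaled by their total count alone, 4 cholangiocyte markers were called higher and 0 lower in EE2 females, and 6 mesenchyme markers higher and 1 lower. That scaling also called 3 of 12 endothelium and 2 of 7 macrophage markers higher, where the main fit called 0. The hepatocyte split stayed at 7 lower and 1 higher. In the kidney list CUBN was called higher in EE2 females by edgeR but not by limma voom, and in the mesothelium list 1 of 2 was called lower in EE2 males. That mesothelium call was lost without EE2 male 3 and with scaling by total count. The part of these markers was not tested either. None of the 10 lists of cell type markers held one of the 78 genes, but the hepatocyte list holds APOA1 and FGB, which met both ratios and were left out by name. The rule used the values of APOA1 and FGB, so nothing is read from their calls.

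Over the 78 genes the median ratio of EE2 to solvent was 0.464 in males, with a range of 0.125 to 0.6, and 0.418 in females, with a range of 0.0923 to 0.584. Over all genes at the minimum level the medians were 0.954 in males and 1.21 in females. These ratios chose the genes and are given as a description, with no test. A ratio of at most 0.5 in both sexes was reached by 35 of the 78. Together the 78 genes took 0.732 ± 0.187% of all counts in EE2 males (SD, n = 4), against 1.58 ± 0.344% in solvent males (n = 5), and 0.627 ± 0.0958% in EE2 females (n = 6), against 1.49 ± 0.423% in solvent females (n = 5). Their mean solvent level was under 10 CPM in 15 genes, between 10 and 100 CPM in 43 and higher in the other 20.

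**Figure D1:**
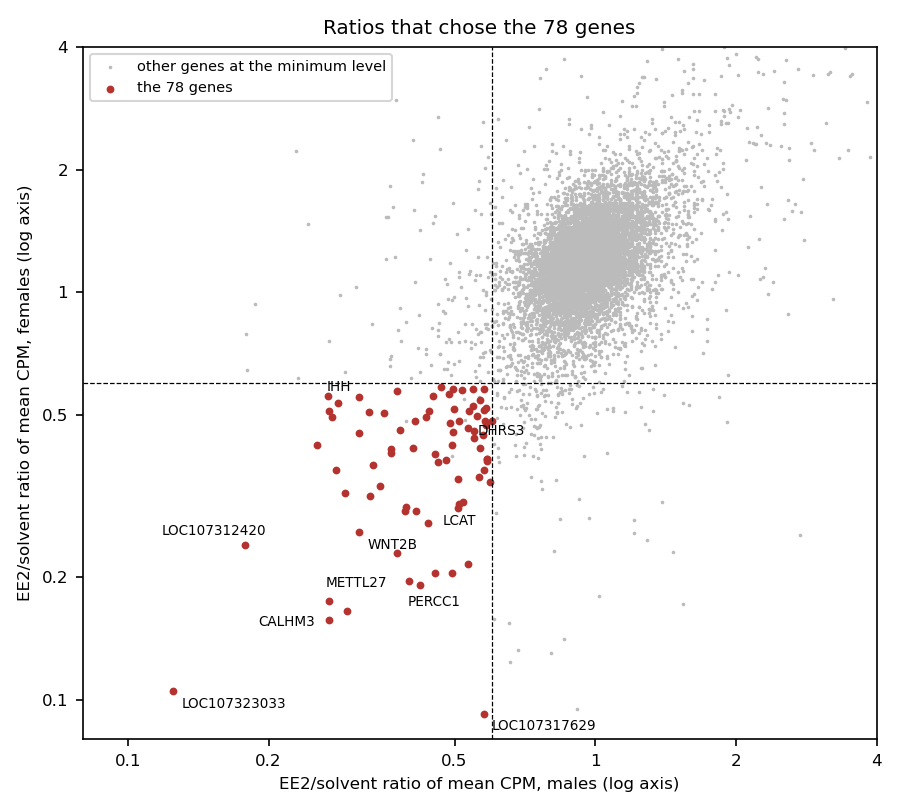
Ratio of the mean CPM in EE2 embryos to the mean CPM in solvent embryos, males on the x axis and females on the y axis, both log axes, for the genes whose mean solvent level was at least 3 CPM. Red points are the 78 genes, grey points the other genes at that level, dashed lines the limit of 0.6, and 40 grey genes lie beyond the axes. LOC107323033 has the lowest male ratio (0.125), and LOC107317629 has the lowest female ratio (0.0923) with a male ratio of 0.577.

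In males, the 4 EE2 libraries all lay below the 5 solvent libraries for 29 of the 78 genes, where the same was so for 3.8% of the 13501 genes tested. In females, the 6 EE2 libraries all lay below the 5 solvent libraries for 42 of the 78, where the same was so for 2.16% of all genes tested. Such groups are called apart below. Both held for 18 genes, among them LCAT, FTCD, DHRS3, NMRK1, METTL27, CHCHD10, WNT2B, RGS8, LINGO3, PLA2G3, PERCC1, THSD7B, C1H3orf85 and 4 locus genes. The share of all genes tested for which both held is not given. In edgeR's quasi-likelihood test, with p-values adjusted by the Benjamini-Hochberg method over all genes tested and a threshold of 0.05, 23 of the 78 were called lower in EE2 males (1.03% of all genes tested), 64 in EE2 females (10.1%), and the 23 male calls were all among the 64. The male count was 31 without EE2 male 3, 11 without EE2 male 4 or EE2 male 5 and 14 without EE2 male 6. Because the ratios in these same comparisons chose the genes, nothing is read from these counts.

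**Figure D2:**
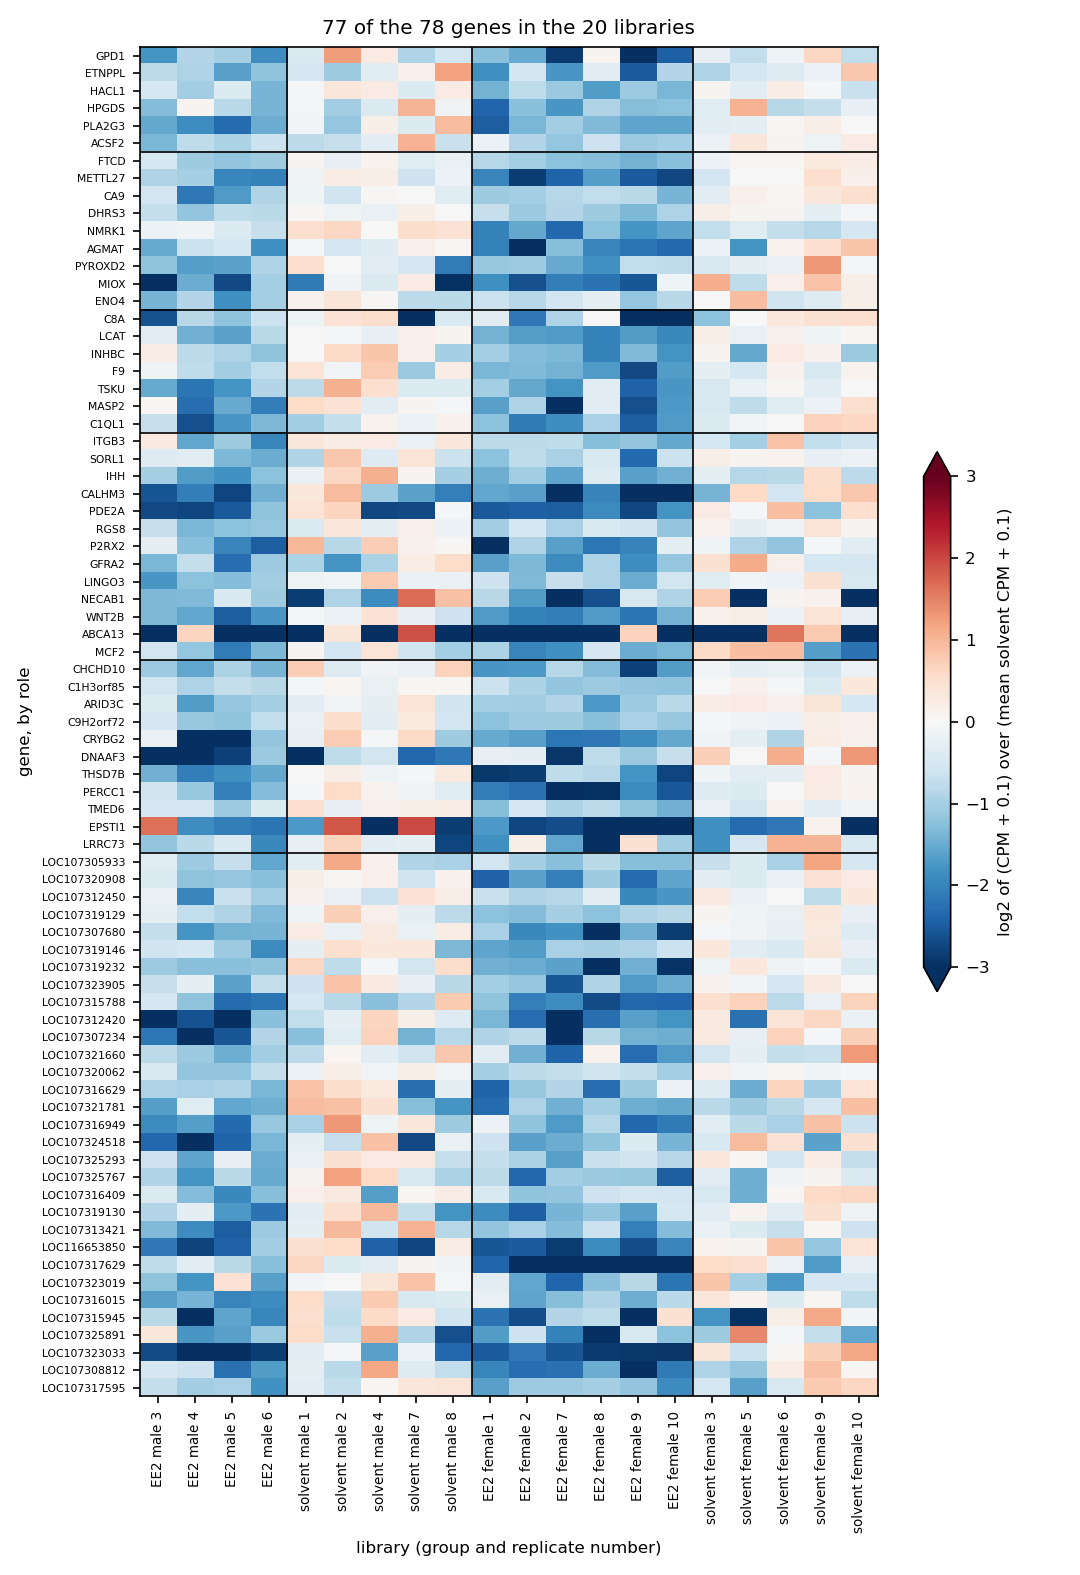
Level of 77 of the 78 genes (rows, grouped by role, with locus genes at the bottom) in the 20 libraries (columns, by group and replicate number), coloured by the log2 of CPM plus 0.1 over the mean solvent CPM plus 0.1, with colours ending at 3 on either side. LCAT, FTCD and DHRS3 are blue in all EE2 columns, palest in EE2 male 3 for LCAT and FTCD, and ABCA13, EPSTI1 and NECAB1 are red in a few libraries of different groups.

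Among the enzymes of lipid and ketone metabolism, the median ratio of EE2 to solvent was 0.434 in males and 0.413 in females. HACL1, the peroxisomal lyase that shortens branched and hydroxylated fatty acids, averaged 28.1 ± 8.54 CPM in EE2 males and 52.6 ± 10.3 CPM in solvent males, and 21.1 ± 4.74 CPM in EE2 females and 45.5 ± 10.6 CPM in solvent females (SD, n = 4, 5, 6 and 5, as for all group means below). PLA2G3, a secreted phospholipase A2, averaged 5.93 ± 1.47 CPM in EE2 males and 21.2 ± 11.5 CPM in solvent males, and 7.13 ± 2.07 CPM in EE2 females and 19.5 ± 3.18 CPM in solvent females, with no overlap in either sex. GPD1, which makes the glycerol phosphate backbone of glycerolipids, was less even. EE2 female 8 had 109 CPM where the other EE2 females had 7.36 to 42.8 CPM, and solvent male 2 had 244 CPM where the other solvent males had 54.2 to 122 CPM. The EE2 and solvent libraries of GPD1 overlapped in both sexes. ETNPPL, a phosphoethanolamine lyase of phospholipid turnover, also overlapped in both sexes, with 28.5 to 51.4 CPM in EE2 males against 42.0 to 203 CPM in solvent males. HPGDS, which makes prostaglandin D2, had ratios of 0.588 in males and 0.39 in females, with overlap in males only. ACSF2, an acyl-CoA synthetase, had ratios of 0.567 in males and 0.545 in females. Solvent male 7 was at 30.8 CPM of ACSF2. The median of ACSF2 was 9.34 CPM in solvent males against 8.24 CPM in EE2 males, and the males overlapped. In females the highest EE2 library and the lowest solvent library were both at 13.3 CPM.

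The other measured genes of fatty acid oxidation and ketone synthesis are described by the same test. The lists hold some genes that met the same ratios and were left out by name, among them ACSL1 here, FGA, FGB and FGG in clotting, and APOA1 and FABP2 among the lipoprotein genes. Of 26 tested genes of that list outside the 78, 5 were called lower and 0 higher in EE2 males, and 21 lower and 0 higher in EE2 females, with medians of -0.30 and -0.60 on the log2 scale. With libraries scaled by their total count alone, 8 were called lower in males and 13 in females. Both limma voom and DESeq2 called 0 of the 26 higher in either sex, and 12 in males and 24 in females were under an unadjusted p of 0.05 in either direction. The share of all genes tested under that unadjusted p is not given, so nothing is read from such counts in the lists. Over all genes tested, edgeR called 1.03% lower and 2.24% higher in EE2 males, and 10.1% lower and 10.2% higher in EE2 females. The medians over all genes tested were -0.01 in males and 0.01 in females. The rule used the values of ACSL1, so nothing is read from the counts of lower calls in this list. In EE2 males CPT1A, which brings fatty acids into mitochondria, was lower with a log2 change of -0.96 (SE 0.184, adjusted p = 0.00492), and ACAT1, which makes acetoacetyl-CoA, was lower with -1.20 in EE2 females (SE 0.134, adjusted p = 4.61e-06).

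The other enzymes had median ratios of 0.495 in males and 0.414 in females. FTCD, which passes the one-carbon unit from histidine breakdown to folate, had 173, 119, 110.0 and 119 CPM in the EE2 males and 261, 210.4, 269, 194 and 212 CPM in the solvent males. In EE2 females its level was 92.1 to 136 CPM with a median of 105 CPM, against 221, 259.6, 259, 304 and 291 CPM in the solvent females. The groups did not overlap in either sex, with EE2 male 3 standing nearest to the solvent males, and the ratios were 0.568 in males and 0.414 in females. Among the 38 other tested genes of amino acid breakdown and nitrogen handling, edgeR called 2 higher and 0 lower in EE2 males, and 3 higher and 23 lower in EE2 females. In males limma voom called 0 of the 38 lower and DESeq2 called 2 lower, and 9 were under an unadjusted p of 0.05. With libraries scaled by their total count alone, the split over the 38 was 2 higher and 3 lower in males and 3 higher and 12 lower in females.

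DHRS3, which reduces retinal to retinol and so holds back retinoic acid synthesis, had 32.6, 23.5, 31.3 and 30.3 CPM in the EE2 males and 54.5, 48.3, 46.1, 60.4 and 54.1 CPM in the solvent males. EE2 females had 20.9 to 32.9 CPM with a median of 26.7 CPM, and solvent females had 60.8, 56.7, 56.4, 44.4 and 52.4 CPM. Within each group its SD was at most 6.17 CPM, and the groups were apart in both sexes, with ratios of 0.559 in males and 0.496 in females. The 15 other tested genes of retinoid and vitamin handling did not move together: 2 were called higher and 1 lower in EE2 males, and 4 higher and 4 lower in EE2 females, where scaling by total count gave 2 and 0 in males and 5 and 1 in females. TCN2, the transport protein of vitamin B12, was higher, with a log2 change of 4.26 in EE2 males (SE 0.295, adjusted p = 1.90e-08) and 4.15 in EE2 females (SE 0.284, adjusted p = 1.85e-08).

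MIOX, the first enzyme of inositol breakdown, was low in all groups, with 0.034, 1.44, 0.56 and 2.03 CPM in the EE2 males and 0.9, 3.95, 3.11, 5.06 and 0.451 CPM in the solvent males. EE2 females had 0.595 to 3.84 CPM with a median of 0.884 CPM, and solvent females had 9.18, 2.44, 4.73, 7.71 and 4.82 CPM. The groups overlapped in both sexes, and the ratios were 0.376 in males and 0.229 in females. METTL27, a predicted methyltransferase, had 43.4, 40.5, 20.8 and 19.8 CPM in the EE2 males and 75.8, 94.8, 93.7, 53.0 and 72.5 CPM in the solvent males. EE2 females had 11.2 to 25.8 CPM of METTL27 with a median of 14.9 CPM, and solvent females had 54.2, 81.7, 81.4, 116 and 90.9 CPM. It was apart in both sexes, with ratios of 0.399 in males and 0.196 in females. AGMAT, which in other vertebrates is annotated as an agmatinase, had 1.72 to 7.11 CPM in EE2 females, and solvent female 5, at 4.95 CPM, lay inside that range. CA9, a membrane carbonic anhydrase, and ENO4, an enolase, had ratios of 0.495 and 0.449 in males and 0.455 and 0.555 in females. PYROXD2 had ratios of 0.479 in males and 0.387 in females, and solvent female 9 was at 26.1 CPM where the other solvent females were at 7.54 to 10.1 CPM.

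**Figure D3:**
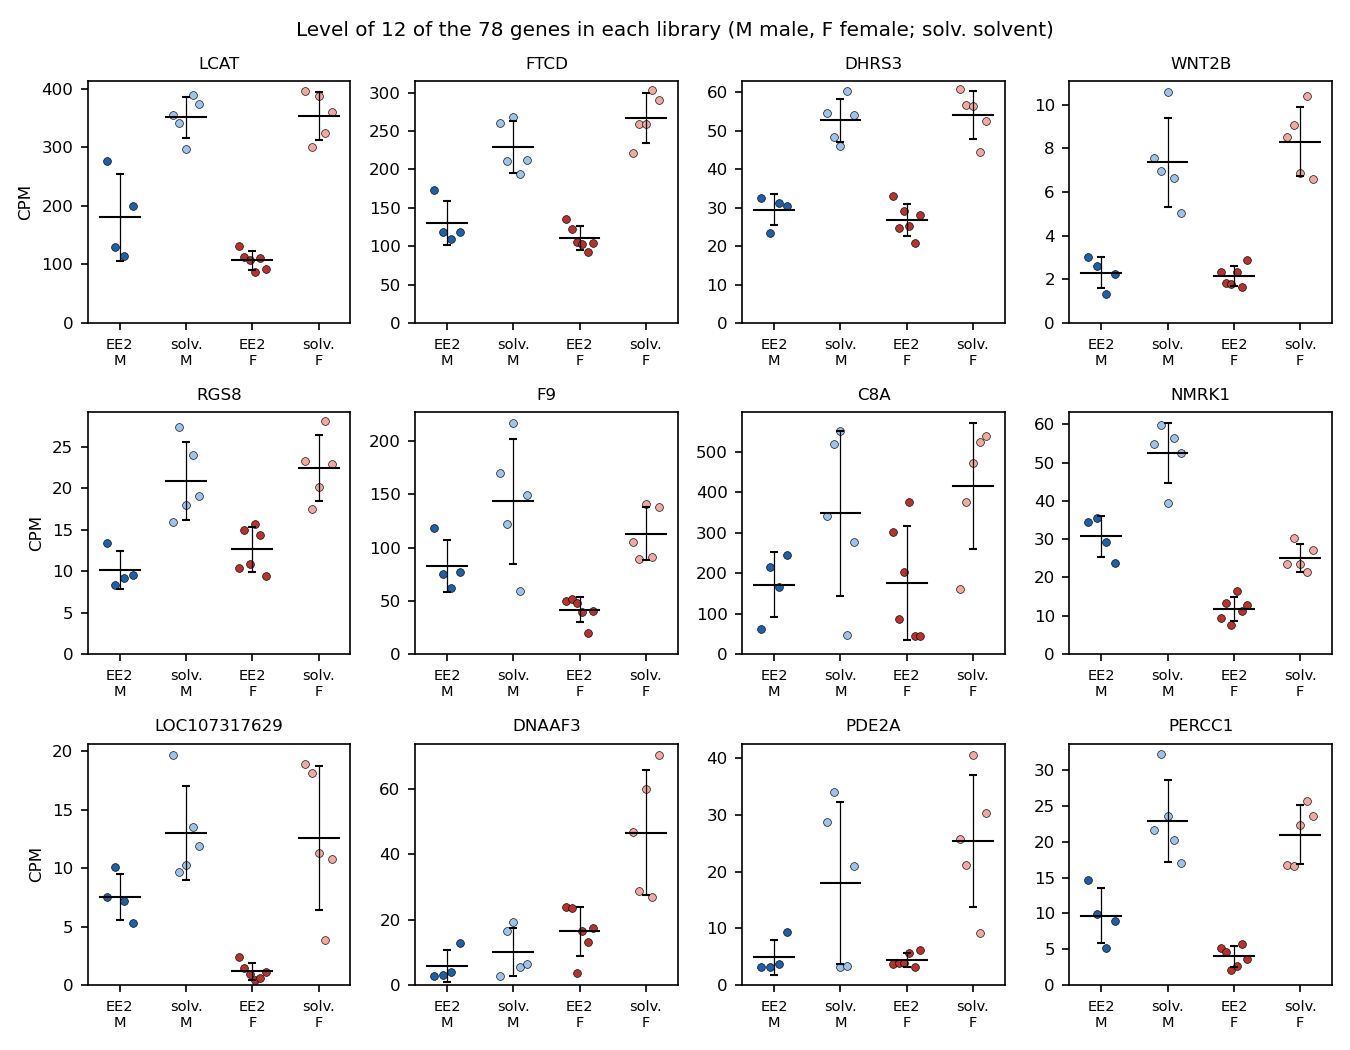
Level in CPM (linear axes from 0) of 12 of the 78 genes in each library, by group: EE2 males, solvent males, EE2 females and solvent females, with points for libraries, horizontal lines for means and bars for the SD. LCAT, FTCD, DHRS3, WNT2B, RGS8, NMRK1 and PERCC1 show no overlap between EE2 and solvent libraries within either sex, and C8A overlaps in both.

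The 7 secreted proteins had median ratios of 0.494 in males and 0.414 in females. LCAT, the plasma enzyme that esterifies cholesterol on high-density lipoprotein, had 277, 129, 115 and 200.5 CPM in the EE2 males and 355, 341, 298, 389.9 and 374 CPM in the solvent males. EE2 females had 86.3 to 131 CPM with a median of 109 CPM, and solvent females had 397, 300.0, 387, 324 and 359.9 CPM. The groups were apart in both sexes, and EE2 male 3 was the EE2 library nearest to the solvent level. The ratios of LCAT were 0.512 in males and 0.302 in females. Of the 18 other tested genes of apolipoproteins and lipoprotein handling, 4 were called lower and 1 higher in EE2 males and 9 lower and 1 higher in EE2 females, where scaling by total count gave 7 lower and 3 higher in females. Over all genes tested, edgeR called 1.03% lower in EE2 males and 10.1% lower in EE2 females. APOA1 and FABP2, which met both ratios and were left out by name, were among the genes called lower in both sexes. The rule used the values of APOA1 and FABP2, so nothing is read from the counts of lower calls in this list. LPL, the lipase that clears triglyceride from plasma lipoproteins, was among the female calls, with a log2 change of -1.63 (SE 0.181, adjusted p = 4.67e-06).

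F9, a clotting factor whose loss in humans causes haemophilia B, had 118, 75.4, 61.8 and 76.8 CPM in the EE2 males and 169.6, 122, 217, 59.2 and 149.8 CPM in the solvent males. EE2 females had 19.7 to 51.5 CPM with a median of 43.9 CPM, and solvent females had 105, 89.6, 141, 91.4 and 138 CPM. The males overlapped through solvent male 7 alone, which lay below all 4 EE2 males, and the females did not overlap. The ratios of F9 were 0.579 in males and 0.366 in females. Among 19 other tested genes of clotting and fibrinolysis, edgeR called 4 lower and 0 higher in EE2 males, and 14 lower and 1 higher in EE2 females. FGA, FGB and FGG, which met both ratios and were left out by name, were among the 4 male calls. The rule used their values in both sexes, so nothing is read from the counts of lower calls in either sex. In males, limma voom called 0 and DESeq2 called 1 of the 19 higher, and 6 were under an unadjusted p of 0.05.

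C8A, a subunit of the membrane attack complex of complement, varied widely within every group. It had 62.3, 215, 165 and 246 CPM in the EE2 males and 343, 519, 553, 48.1 and 278 CPM in the solvent males. EE2 females had 43.5 to 376 CPM with a median of 144 CPM, and solvent females had 162, 377, 472, 526 and 541 CPM. Both sexes overlapped, and the lowest male was a solvent male. The ratios were 0.494 in males and 0.422 in females, and edgeR called C8A in neither sex. MASP2, the protease that starts the lectin pathway, had 36.3, 7.01, 12.1 and 8.14 CPM in the EE2 males and 50.5, 46.5, 27.2, 36.6 and 34.0 CPM in the solvent males, so that only EE2 male 3 lay among the solvent males. In EE2 females MASP2 had 2.18 to 27.8 CPM with a median of 10.8 CPM, against 24.9, 20.5, 26.8, 30.4 and 48.7 CPM in the solvent females. Of 12 other tested complement genes, edgeR called 0 in EE2 males, as did limma voom and DESeq2, with 2 under an unadjusted p of 0.05, and called 4 lower and 2 higher in EE2 females, where scaling by total count gave 2 and 2. C8B, the partner chain of C8A, was lower in EE2 females, with a log2 change of -1.99 (SE 0.435, adjusted p = 0.00313). C6 went the other way and was higher in EE2 females, with a log2 change of 2.47 (SE 0.685, adjusted p = 0.0155).

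TSKU, a secreted leucine-rich protein, averaged 16.2 ± 6.61 CPM in EE2 males and 51.9 ± 29.2 CPM in solvent males, and 18.5 ± 9.92 CPM in EE2 females and 40.9 ± 6.14 CPM in solvent females. INHBC, an inhibin beta chain made mainly by liver in mammals, overlapped in both sexes, with solvent male 8 at 108 CPM and solvent female 5 at 75.0 CPM. C1QL1, a C1q-like secreted protein, had ratios of 0.439 in males and 0.272 in females.

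Signalling and membrane proteins made up the largest named group, with median ratios of 0.392 in males and 0.482 in females. WNT2B, a WNT ligand, was low but even: 3.02, 2.6, 1.34 and 2.26 CPM in the EE2 males and 7.58, 6.97, 10.6, 6.63 and 5.03 CPM in the solvent males. EE2 females had 1.64 to 2.87 CPM with a median of 2.09 CPM, and solvent females had 8.54, 9.06, 6.88, 10.4 and 6.6 CPM. All 10 EE2 libraries lay below all 10 solvent libraries, with ratios of 0.313 in males and 0.258 in females. IHH, a hedgehog ligand, averaged 9.59 ± 2.58 CPM in EE2 males and 30.6 ± 15.6 CPM in solvent males, and 11.1 ± 4.33 CPM in EE2 females and 20.1 ± 9.65 CPM in solvent females. RGS8, which speeds the turn-off of G proteins, averaged 10.1 ± 2.25 CPM in EE2 males and 20.9 ± 4.74 CPM in solvent males, and 12.6 ± 2.67 CPM in EE2 females and 22.4 ± 3.96 CPM in solvent females.

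PDE2A, a phosphodiesterase that degrades cyclic nucleotides, took either a low or a high level in the solvent males. It had 3.26, 3.15, 3.7 and 9.42 CPM in the EE2 males and 28.8, 34.1, 3.21, 3.27 and 21.0 CPM in the solvent males. EE2 females had 3.21 to 6.19 CPM with a median of 3.88 CPM, and solvent females had 25.8, 21.2, 40.7, 9.22 and 30.3 CPM. Solvent males 4 and 7 lay at the EE2 level, and the females did not overlap. The ratios of PDE2A were 0.27 in males and 0.175 in females. CALHM3, a channel subunit of taste cells in mammals, had 3.57, 5.16, 3.17 and 8.1 CPM in the EE2 males and 27.5, 42.5, 10.3, 7.16 and 5.21 CPM in the solvent males. For CALHM3 the EE2 females had 0.5 to 7.47 CPM with a median of 3.82 CPM, and solvent females had 8.36, 33.4, 14.7, 32.4 and 38.9 CPM, with overlap in males only.

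The remaining 8 of the 13 included GFRA2, a receptor subunit for neurturin, and SORL1, a sorting receptor, which were apart in females only. ITGB3 (an integrin chain), P2RX2 (an ATP-gated channel), NECAB1 (a calcium-binding protein), MCF2 (a guanine nucleotide exchange factor) and ABCA13 (a transporter of the ABC family) overlapped in both sexes. LINGO3, a leucine-rich membrane protein, was apart in both, at 3.3 to 5.44 CPM in EE2 males against 9.83 to 19.4 CPM in solvent males, and 3.98 to 7.65 CPM in EE2 females against 8.03 to 15.4 CPM in solvent females.

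A few means were carried by single embryos. ABCA13 was at or under 0.149 CPM in 14 of 20 libraries and at 7.42 CPM in EE2 male 4, 6.13 and 18.1 CPM in solvent males 2 and 7, 7.71 CPM in EE2 female 9, and 14.6 and 8.24 CPM in solvent females 6 and 9. EPSTI1, an interferon-induced gene in mammals, had 29.6 CPM in EE2 male 3 and at most 2.5 CPM in the other EE2 males, against 34.0 and 37.4 CPM in solvent males 2 and 7 and at most 2.74 CPM in the other solvent males. In females EPSTI1 was at 0.373 to 2.76 CPM after EE2, against 10.0 CPM in solvent female 9 and 1.09 to 2.56 CPM in the other solvent females. In 4 of the 78 genes (EPSTI1, ABCA13, NECAB1 and LOC107325891) the highest solvent library of at least 1 sex held more than 50% of that group's summed CPM. These 4 genes and LOC107305933, named below, were chosen after their values were seen. Replacing group means by group medians in the same rule kept 53 of the 78 genes and added others to give 65.

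Of the 11 other named genes, PERCC1, a gene needed for gut enteroendocrine cells in mammals, had 14.6, 9.98, 5.19 and 8.91 CPM in the EE2 males and 21.6, 32.2, 23.6 and 20.3 CPM in solvent males 1, 2, 4 and 7, with solvent male 8 the lowest of its group. EE2 females had 2.07 to 5.79 CPM of PERCC1 with a median of 4.14 CPM, and solvent females had 16.8, 16.6, 22.3, 25.7 and 23.6 CPM. The groups were apart in both sexes, with ratios of 0.422 in males and 0.191 in females. CHCHD10, a mitochondrial protein, averaged 61.6 ± 11.6 CPM in EE2 males and 169 ± 62.2 CPM in solvent males, and 48.5 ± 19.4 CPM in EE2 females and 120.2 ± 15.1 CPM in solvent females. THSD7B, a thrombospondin-repeat protein, averaged 7.61 ± 1.53 CPM in EE2 males and 26.1 ± 3.29 CPM in solvent males, and 7.66 ± 5.33 CPM in EE2 females and 23.9 ± 4.01 CPM in solvent females. All 3 were apart in both sexes, as was C1H3orf85. ARID3C, CRYBG2, C9H2orf72 and DNAAF3 were apart in females only, TMED6 in males only, and EPSTI1 and LRRC73 in neither.

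The 31 locus genes had median ratios of 0.455 in males and 0.458 in females. LOC107323033 had the lowest combined ratio of the set, with 0.578, 0.0684, 0.187 and 0.506 CPM in the EE2 males and 3.43, 4.14, 1.31, 3.8 and 0.764 CPM in the solvent males. EE2 females had 0.485 to 0.892 CPM with a median of 0.573 CPM, and solvent females had 5.55, 2.71, 4.37, 7.12 and 9.71 CPM. Its ratios were 0.125 in males and 0.105 in females, and the groups were apart in both sexes. LOC107312420 had 7.75, 21.4, 7.06 and 54.9 CPM in the EE2 males and 79.3 to 205 CPM in the solvent males. Its EE2 females had 8.08 to 50.8 CPM with a median of 32.8 CPM, and its solvent females had 159, 28.0, 171, 203 and 115 CPM. The males were apart, and in females only solvent female 5 lay at the EE2 level. LOC107305933, the most abundant of all 78, had 9189.8 CPM in solvent male 2 and 9399 CPM in solvent female 9, and the other 18 libraries had 1406 to 4582 CPM.

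Nearest to the limit, just inside were C1H3orf85, with ratios of 0.6 in males and 0.484 in females, EPSTI1, with 0.596 and 0.342, and HPGDS, with 0.588 and 0.39. Just outside were G6PC, with 0.568 and 0.604, which is also left out by name, LOC107309939, with 0.607 and 0.158, and KIAA0040, with 0.607 and 0.604.

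EE2 male 3 stood apart from the other EE2 males in the median deviation of these genes. It was the highest of the 4 EE2 males in 39 of the 78 and the lowest in 7, and it lay at or above the lowest solvent male in 39. The median deviation of the 78 genes from their group mean was 0.45 on the log2 scale in EE2 male 3, the next highest of the 20 libraries being 0.28 in solvent female 10, while the median over all genes tested was between -0.01 and 0.01 in every library. EE2 male 3 also had the highest summed level of hepatocyte markers among the EE2 males, 215762 CPM, and the part of that in these values was not tested. Without EE2 male 3 the median male ratio of the 78 was 0.415, the EE2 males lay below the solvent males in 41 genes, 31 were called lower in males, and the rule gave 103 genes, 74 of them among the 78. Solvent female 9, the library with the lowest total, was the highest solvent female in 32 of the 78, and without it the rule gave 70 genes, 67 of them shared. For the counts of genes in this paragraph the shares over all genes tested are not given. A smaller EE2 group also lies below the solvent males more easily, so nothing is read from these counts.

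The sexes were then compared in the size of the response, in the solvent level and in the EE2 level. The rule used the ratios of both sexes and the mean solvent level. The size of the response and the EE2 and solvent levels of these genes are therefore not independent of the rule. The calls for single genes, adjusted over all genes tested, are therefore given as descriptions, and no count of directions or median over the 78 is given for the response or the EE2 level. Fold changes here are from edgeR with trimmed mean (TMM) scaling, which estimates the factor of each library from the bulk of its genes. The TMM factors were 0.884 to 1.02 in EE2 males, 0.9 to 1.05 in solvent males, 1.09 to 1.17 in EE2 females and 0.804 to 0.994 in solvent females, and scaling by total count alone shifted the fold changes. The median log2 value of all genes tested was 0.30 by total count and 0.01 by TMM in the female EE2 effect, -0.05 and -0.01 in the male one, 0.34 and 0.01 in their difference, and 0.25 and 0.01 between EE2 females and EE2 males.

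The female minus male difference in the EE2 effect was called for 1 of the 78, where 1.06% of all genes tested were called, and 15 were under an unadjusted p of 0.05. The share of all genes tested under that unadjusted p is not given, so nothing is read from this count or from such counts below. The called gene, LOC107317629, had 7.51, 10.1, 7.21 and 5.27 CPM in the EE2 males and 19.7, 9.65, 10.3, 13.5 and 11.9 CPM in the solvent males. EE2 females had 0.436 to 2.37 CPM with a median of 1.02 CPM, and solvent females had 18.9, 18.1, 11.3, 3.86 and 10.8 CPM. All 6 EE2 females lay below all other libraries. The female minus male difference was -2.98 (SE 0.571, edgeR adjusted p = 0.0232), and the call was lost without EE2 male 3 or without EE2 male 4, with an adjusted p between 0.000105 and 0.422 over all alternatives. Without EE2 male 5 the count was 3 genes and without EE2 female 1 it was 2.

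In solvent embryos the sexes differed for 2 of the 78 genes (1.72% of all genes tested were called), with 3 under an unadjusted p of 0.05. The median log2 difference of females minus males over the 78 was 0.05, or -0.04 by total count scaling, against -0.09 over all genes tested by that scaling. The rule used the solvent levels too, so nothing is read from the counts or the median. NMRK1, a kinase that makes nicotinamide mononucleotide in the synthesis of NAD, had 23.4, 30.4, 23.5, 21.3 and 27.3 CPM in the solvent females and 54.8, 59.9, 39.4, 56.4 and 52.5 CPM in the solvent males, a log2 difference of -0.96 (SE 0.187, edgeR adjusted p = 0.0049). DNAAF3, an assembly factor for the motors of cilia, had 46.9, 28.8, 60.1, 27.1 and 70.5 CPM in the solvent females and 2.91, 16.7, 19.2, 5.43 and 6.35 CPM in the solvent males, a log2 difference of 2.34 (SE 0.563, adjusted p = 0.0363). After EE2 the level of DNAAF3 was 3.68 to 24.0 CPM in females, with a median of 17.1 CPM, against 2.72 to 3.96 CPM in EE2 males 3, 4 and 5 and 13.03 CPM in EE2 male 6. In solvent embryos neither gene overlapped between the sexes, but the DNAAF3 call was lost in 6 of the 20 fits that left out 1 library. These were the fits without solvent male 1, 7 or 8 or solvent female 3, 6 or 10, and it was also lost with scaling by total count and in a fit of the 2 solvent groups alone.

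Birds carry the sex chromosomes as ZZ in males and ZW in females, and most genes of the Z chromosome are not fully evened out between the sexes. NMRK1 lies on Z in the RefSeq annotation, as do ARID3C, CA9 and LOC107305933, which makes 4 of the 78 genes (5.13%) against 604 of all genes tested (4.47%). The median log2 difference of females minus males over those 604 was -0.41 in solvent embryos and -0.43 in EE2 embryos. Of the 4, only NMRK1 was called in a comparison of the sexes, where 180 of the 604 were called in solvent embryos and 241 of the 604 in EE2 embryos.

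In EE2 embryos 7 of the 78 genes were called between the sexes, where 6.47% of all genes tested were called in either direction, and 23 were under an unadjusted p of 0.05. The rule used the EE2 levels, and the share of all genes under that unadjusted p is not given, so nothing is read from either count. NMRK1 was at 7.58 to 16.5 CPM in EE2 females with a median of 12.1 CPM, against 34.6, 35.5, 29.2 and 23.9 CPM in EE2 males, a log2 difference of -1.63 (SE 0.189, edgeR adjusted p = 1.26e-05). The values of LOC107317629 given above came to -2.94 (SE 0.423, adjusted p = 0.000184). LCAT was lower in EE2 females than in EE2 males by a log2 difference of -1.02 (SE 0.203, adjusted p = 0.00432), PERCC1 by -1.55 (SE 0.285, adjusted p = 0.00224) and METTL27 by -1.18 (SE 0.287, adjusted p = 0.0183). F9 was lower by -1.26 (SE 0.323, adjusted p = 0.0245).

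LOC107320908 had 178 to 450.0 CPM in EE2 females with a median of 269.6 CPM, against 715, 408, 425 and 399 CPM in EE2 males, a log2 difference of -1.06 (SE 0.269, adjusted p = 0.0221). Its solvent level was 764, 719, 826, 1287 and 1118 CPM in females and 1068, 979.8, 1057, 629 and 1045 CPM in males. In EE2 embryos the sexes overlapped through EE2 female 8. Without EE2 male 3, which was the highest EE2 male in all of these genes but NMRK1 and LOC107317629, 4 genes were called, and F9, METTL27 and LOC107320908 were not. METTL27 was also lost without EE2 male 4 and LOC107320908 without EE2 female 9, and the count was 11 without EE2 female 1. Apart from LOC107317629, the female minus male difference in the EE2 effect itself was not called for any of these genes. It was -1.11 for LCAT (SE 0.286, adjusted p = 0.07), -1.52 for PERCC1 (SE 0.394, adjusted p = 0.0722), -1.38 for METTL27 (SE 0.402, adjusted p = 0.104), -1.12 for LOC107320908 (SE 0.38, adjusted p = 0.165) and -0.67 for NMRK1 (SE 0.265, adjusted p = 0.243).

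**Figure D4:**
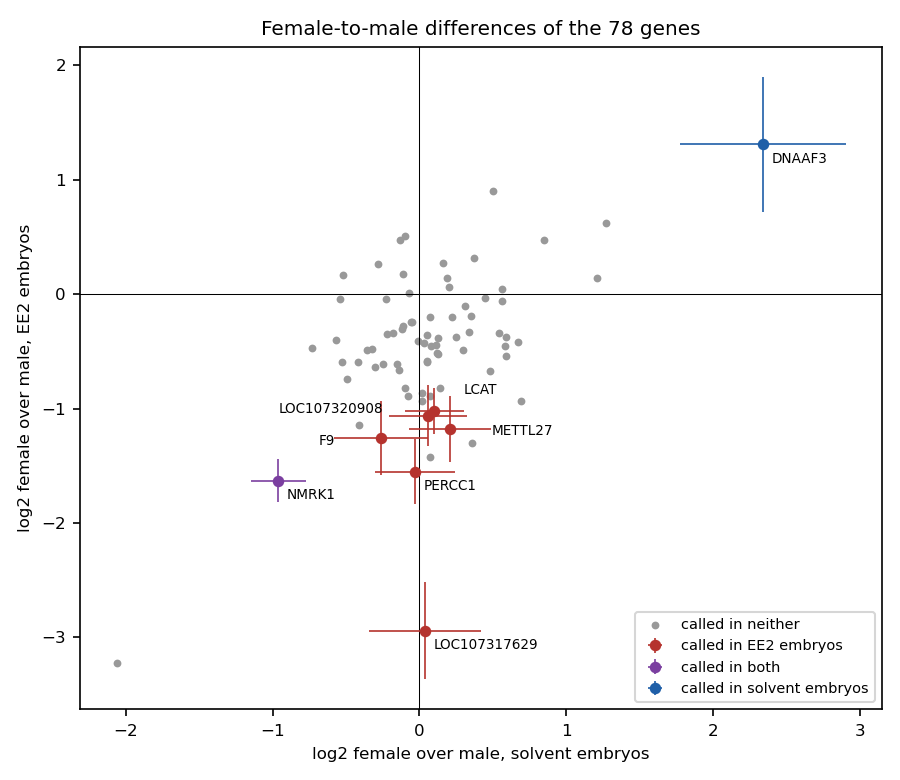
Log2 difference of females over males for the 78 genes, in solvent embryos on the x axis and in EE2 embryos on the y axis, with bars for the SE of called genes. LOC107317629, PERCC1, METTL27, F9, LOC107320908 and LCAT lie between -0.26 and 0.21 on the x axis and at -1.02 or below on the y axis, NMRK1 is below 0 on both, and DNAAF3 is above 0 on both. The grey point at the far lower left is EPSTI1, called in neither.

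How the genes varied together within groups was examined in their deviations from the 4 group means over the 20 libraries, as a description. Over 3003 pairs the median correlation was 0.10, and 63.2% of pairs were above 0. The same values for pairs of all genes tested are not given, so nothing is read from this median or this share. The closest pair was PDE2A and LOC116653850 (r = 0.99, n = 20). LOC116653850 had 2.85, 1.81, 2.32 and 6.18 CPM in the EE2 males and 1.82 to 18.9 CPM in the solvent males, and in EE2 females it had 1.72 to 3.36 CPM, against a lowest value of 5.69 CPM in the solvent females. DNAAF3 and its immediate neighbour LOC107307234 came next at r = 0.90. After 4 pairs with r between 0.80 and 0.83, all of which include a locus gene, came F9 and FTCD, which are not neighbours, at r = 0.79. Among those 4 pairs, LOC107319129, LOC107319146, LOC107307680 and LOC107319232 are genes with signs of divided reads, as described below.

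Several of the genes lie next to one another in the genome order. Pairs with no other measured gene between them were F9 with MCF2 (r = 0.20), PLA2G3 with P2RX2 (0.48), IHH with LOC107316949 (0.62), INHBC with LOC107325767 (0.61), DNAAF3 with LOC107307234 (0.90), LOC107319130 with LOC107319146 (0.83) and LOC107319146 with LCAT (-0.19). No pair overlapped in position. LOC107319129, with 4 genes between it and LOC107319130, correlated with it at 0.78, and HPGDS, with 3 genes between it and ETNPPL, at 0.35.

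**Figure D5:**
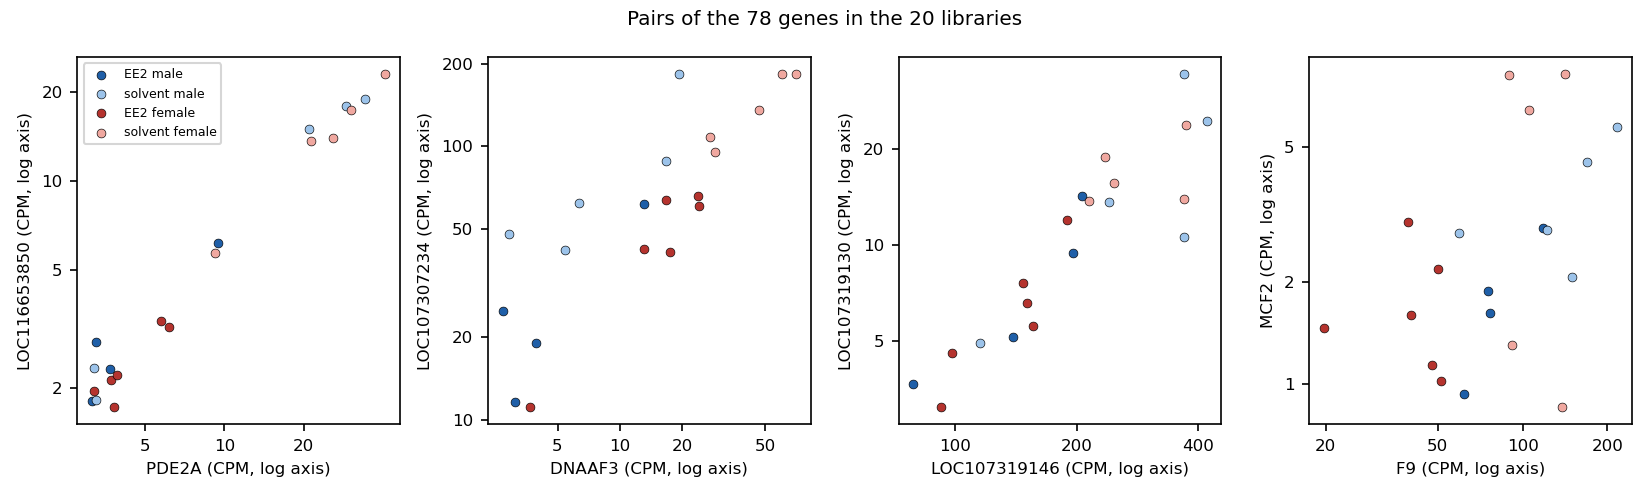
Levels in CPM (log axes) of 4 pairs of the 78 genes in the 20 libraries, coloured by group. PDE2A and LOC116653850 lie on one line over all groups (within-group r = 0.99), DNAAF3 with LOC107307234 (0.90) and LOC107319146 with LOC107319130 (0.83) are looser, and the neighbours F9 and MCF2 (0.20) show little relation.

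Estimated counts divide reads that fit more than one gene. A gene whose summed count is a whole number (within 0.01) in all 20 libraries gives no sign of divided reads: this held for 66 of the 78 and for 89.2% of genes tested. The counts of IHH were never whole, and its sum with SHH, another hedgehog ligand at 0.705 to 1.92 CPM, was whole (within 0.02) in all 20 libraries. LOC107319129 and LOC107319146 were never whole alone and whole as a sum in 16 of 20. INHBC and LOC107325767 were not whole in 3 libraries each and whole as a sum in those 3. ARID3C was not whole in 16 libraries, and its sum with ARID3A was whole in 14 of those, with ARID3A at 49.9 to 109.9 CPM. LOC107307680, LOC107312450 and LOC107319232 were not whole in 19 or 20 libraries and had no such single partner. LOC107315788 was not whole in 8 libraries and C1QL1 in 10 (its sum with C1QL4 was whole in 6 of those). The levels of these genes are therefore uncertain to the extent of the shared reads, and PDE2A, LOC116653850, DNAAF3 and LOC107307234 are not among them.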

How the data were processed

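The authors deposited kallisto estimated counts per coding sequence for 20 libraries, per the submitters' processing notes. The kallisto version and the transcript build are not given in the sources used here. The coding sequences (40934 rows) were summed to 16066 genes, all matched to RefSeq names (Coturnix japonica 2.1). Levels are CPM on the summed total of each library. Fold changes are from edgeR 4.0.16 in R 4.3.3 (rounded counts, TMM scaling, filterByExpr with a count minimum of 10 and a total minimum of 15, 1 mean per group, all 20 libraries, quasi-likelihood test, two-sided, Benjamini-Hochberg threshold 0.05), which left 13501 genes. The SE given with a log2 value was derived from that test, as the absolute log2 value over the square root of the F statistic. The code was tested on simulated counts. DESeq2 1.42.0 and limma 3.58.1 were alternatives, as were other scalings, filters and leaving out each library. P-values measure only the spread between these embryos.

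The genes, gene lists and roles were chosen with earlier results of these data known. Values by library or group range are given by rule for 20 genes, of which 1 is not reported here: the 10 with the lowest ratios, those among the 10 with the highest solvent level that have a name, list members, and those called between sexes. The other genes were named with their values seen. Promoter and protein sequences were not analysed here. Genome coordinates are not printed.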

Additional observations from a re-analysis of the deposited data

Results flagged for a closer look

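Among 80 groups examined for the 20 genes named by rule, 6 held a library far from the rest of its group, where chance gives about 1 in 20 groups. EE2 male 6 had 9.42 CPM of PDE2A, the other EE2 males having 3.15 to 3.7 CPM. The same embryo had 13.03 CPM of DNAAF3, the other EE2 males having 2.72 to 3.96 CPM. EE2 male 3 had 173 CPM of FTCD, the other EE2 males having 110.0 to 119 CPM, and 715 CPM of LOC107320908, the others having 399 to 425 CPM. Solvent male 7 was low in LOC107320908, at 629 CPM where the other solvent males had 979.8 to 1068 CPM. EE2 female 10 had 3.84 CPM of MIOX, the other EE2 females having 0.595 to 1.11 CPM.

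For LOC107317629 the EE2 effect was called different between the sexes, with a female minus male log2 difference of -2.98 (SE 0.571, edgeR adjusted p = 0.0232). The call was lost without EE2 male 3, without EE2 male 4 and with the replicate block. The rule used the levels of this gene, so they are given as a description. All 6 EE2 females were below all 4 EE2 males.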

How the results depend on the processing

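The rule gave 78 genes, 35 with a ratio of at most 0.5, 151 with at most 0.7, and 70 to 103 when 1 library was left out. TMM-scaled CPM gave 92 genes, 68 of them shared. In males 23 of the 78 were called lower, with 38 by the DESeq2 Wald test, 11 in a fit of only the 2 groups and 11 to 31 with 1 library left out. In females 64 were called lower, with 58 to 65 when 1 library was left out. The sex difference in the EE2 effect was called for 1 gene, with 5 by the DESeq2 Wald test, 0 to 3 with 1 library left out and 3 by column-sum scaling, which was added after seeing the data. In solvent embryos the sexes differed in 2 genes, with 1 by column-sum scaling, 1 in a fit of only the 2 groups and 1 to 2 with 1 library left out. In EE2 embryos they differed in 7 genes, with 15 by the DESeq2 Wald test and 4 to 11 with 1 library left out. The log2 differences of the single genes called between the sexes kept their sign under the alternatives run, but the median solvent difference between the sexes over the 78 was 0.05 by TMM and -0.04 by column-sum scaling. The cause of these changes was not tested. Replicate numbers did not pair the samples: same-numbered libraries correlated at -0.02 to 0.14 over 10 pairs, and 3 of 20 libraries correlated best with their own number. With the replicate block the counts were 2 lower in males, 40 lower in females, 0 for the difference in the EE2 effect, 0 in solvent embryos and 2 in EE2 embryos. Solvent female 9 had the fewest counts, and genes under 10 CPM rest on fewer reads than the rest.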
